A study of Mus musculus with 6 samples.

Results

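The 9 genes described here are Tmem179, Qrfp, Nrxn2, Abca13, Gucy2c, Olfm2, Ccdc80, Plbd1 and Insc, chosen by name out of 46603 genes in the count tables because they were rare in wild-type enamel organ and raised in the Stim1/2 knockout, and because many are known from neural or secretory tissue. Enamel organ cells were taken from the lower incisors of C57BL/6 mice, and RNA was sequenced from 3 libraries labelled Stim1/2 Knock out (DKO 1, DKO 3 and DKO 4) and 3 labelled Wild Type (WT 1, WT 2 and WT 3). The labels give no age, no treatment and no promoter or cell type in which the deletion was made, and they do not say whether each library came from a separate animal, so the spread between libraries may be in part technical. The choice of the genes used the DKO and WT values themselves, so their differences between the groups are given as a description, with no test.

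The STIM proteins sense how much calcium the endoplasmic reticulum holds. When this store empties they open ORAI channels in the plasma membrane, and calcium entering by this route acts on the calcineurin and NFAT pathway among others. The enamel organ holds the ameloblasts, which secrete the enamel matrix and then move calcium into it. Of the 9 genes, Qrfp encodes the precursor of a neuropeptide of the RFamide family, Olfm2 a secreted olfactomedin glycoprotein, Ccdc80 a secreted matrix protein and Plbd1 a phospholipase B-like protein of the lysosome. Nrxn2 is a presynaptic adhesion molecule, Gucy2c the receptor guanylate cyclase for guanylin and uroguanylin in the gut, Abca13 a very large lipid transporter of the ABC family and Tmem179 a multi-pass membrane protein. Insc is an adaptor that joins the PAR polarity proteins to the machinery that orients the mitotic spindle.

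Library totals ran from 18609759 to 22829411 counts. Stim1 lay between 107 and 143 counts per 1000000 (CPM, with library sizes scaled by edgeR's TMM factors) in the DKO libraries and between 362 and 492 CPM in the WT libraries. Stim2 lay between 105 and 136 CPM in DKO and between 229 and 310 CPM in WT, so transcripts of both genes were lower in DKO but remained well above 0. The ameloblast markers Amelx, Ambn, Enam, Mmp20, Klk4, Amtn and Odam summed to 95834 to 162004 CPM in WT and 137372 to 205085 CPM in DKO. Xist was high in DKO 1, WT 1 and WT 2 and near 0 in the other 3 libraries, so both groups mixed the sexes.

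The sequence before the start of 4 of the genes is shown because the STIM pathway is known for acting through NFAT and because calcium also acts on CRE-binding factors. These are the 250 bases before a RefSeq start on GRCm38.p6, each on the minus strand and written 5′ to 3′, with capitals for the NFAT core GGAAA and the shorter CRE site TGACG on either strand (also where the latter forms the full palindrome TGACGTCA). The positions are chr12:112511161-112511410 for Tmem179, chr2:31810581-31810830 for Qrfp, chr6:136661894-136662143 for Plbd1 and chr9:20727004-20727253 for 1 of the 3 Olfm2 starts. The Tmem179 and Olfm2 sequences lie inside the spans annotated for these genes, whose 5′ ends are at chr12:112516747 and chr9:20746349. They therefore do not precede the outermost annotated start. The first bases from this Olfm2 start were not found in a transcript. Those from the other Olfm2 starts and from the other genes shown were found.
Tmem179: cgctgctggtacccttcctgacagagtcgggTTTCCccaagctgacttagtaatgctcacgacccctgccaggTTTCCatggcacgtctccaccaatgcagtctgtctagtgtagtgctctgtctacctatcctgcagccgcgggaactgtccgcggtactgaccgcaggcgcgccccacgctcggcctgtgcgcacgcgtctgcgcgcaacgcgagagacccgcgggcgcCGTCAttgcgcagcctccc
Qrfp: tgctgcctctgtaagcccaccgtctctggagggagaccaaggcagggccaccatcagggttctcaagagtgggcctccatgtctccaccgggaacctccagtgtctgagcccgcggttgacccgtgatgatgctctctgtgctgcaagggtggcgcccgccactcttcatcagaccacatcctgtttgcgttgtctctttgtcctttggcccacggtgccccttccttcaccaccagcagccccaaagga
Plbd1: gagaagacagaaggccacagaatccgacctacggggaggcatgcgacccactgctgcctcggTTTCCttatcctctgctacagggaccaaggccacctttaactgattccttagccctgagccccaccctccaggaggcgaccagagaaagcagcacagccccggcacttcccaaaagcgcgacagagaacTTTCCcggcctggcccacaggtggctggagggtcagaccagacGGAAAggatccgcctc
Olfm2: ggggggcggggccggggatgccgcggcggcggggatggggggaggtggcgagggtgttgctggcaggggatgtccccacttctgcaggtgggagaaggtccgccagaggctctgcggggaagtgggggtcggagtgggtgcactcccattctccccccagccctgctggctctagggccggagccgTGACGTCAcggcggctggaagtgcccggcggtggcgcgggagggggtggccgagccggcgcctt

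RefSeq promoter windows of 300 bases (250 before the start, 50 after) were at hand for 6 of the 9 genes, in 8 windows. Tmem179 and Qrfp, whose levels differed most between the groups, had unlike windows. The Tmem179 window held 2 NFAT cores, 1 short CRE site and 36 CpG dinucleotides, more CpG than 93.8% of 32817 promoters in the table. The Qrfp window matched none of the 9 motifs searched and held 10 CpG. The NFAT core was found in 4 of the 8 windows (1 each of Tmem179, Plbd1, Olfm2 and Insc), a smaller share than the 61.3% of all promoters. The full CRE was found in 1 window, of Olfm2, against 1.79% of all promoters, and the short CRE site in 2 windows, of Olfm2 and Tmem179, against 20.8%. The AP-1 site TGANTCA was in none of the 8 windows (7.81% of all promoters), and neither was TTCAGCACC, part of the RE1 element bound by the neural repressor REST (0.372%). The other letters searched, on both strands, were TATAAA (1 window, of Olfm2, and 13.6% of all promoters), GGGCGG (2 windows, both of Olfm2, and 35.6%), CCAAT (2 windows, of Abca13 and Tmem179, and 37.4%) and the E-box CANNTG (6 windows and 72.3%). The short site lies inside the full CRE, so the Olfm2 matches to both are the same bases. These matches and the TATAAA of Olfm2 lie in the window of the start whose first bases were not found in a transcript.

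The measured levels fell into 2 kinds. Tmem179, Qrfp and Nrxn2 were at or below 1 CPM in every WT library, and Abca13 and Gucy2c stayed below 3 CPM there. Olfm2, Ccdc80, Plbd1 and Insc were not near-silent in WT: their WT means were 4.93, 4.12, 39.5 and 9.42 FPKM (fragments counted per kilobase and per library size, so that levels of genes of different length can be compared), and the Plbd1 mean was above that of 86.2% of the 14721 tested genes. All 9 were higher in every DKO library than in every WT library, which held for 11.4% of the tested genes. All 9 were higher by over 2-fold, as were 1.77% of the tested genes. All 9 were also among the 108 genes called higher in DKO (0.734% of the tested genes) at an adjusted p below 0.05 in edgeR's quasi-likelihood test, while 0.306% were called lower. None of these counts says anything further, since the genes were chosen on this contrast. RNA from whole tissue cannot tell more cells of a type from more RNA per cell.

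**Figure D1:**
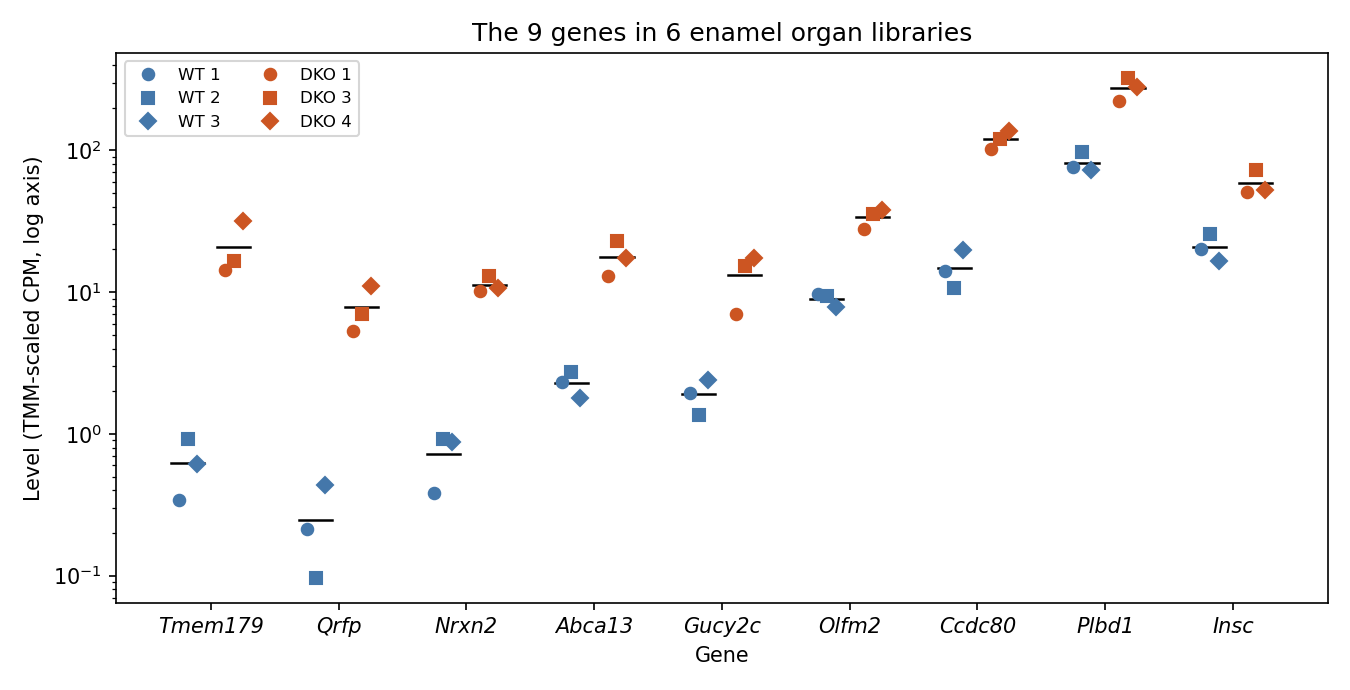
Level of each of the 9 genes in each library, in TMM-scaled CPM on a log axis, with WT libraries in blue, DKO libraries in orange and bars at the group means (n = 3). The DKO points lie above the WT points for each gene, and the gap is widest for Tmem179 and Qrfp, which have the lowest WT levels with Nrxn2.

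Among the secreted products, the neuropeptide precursor Qrfp was the rarest in WT. The gene lies at chr2:31806166-31810580 on the minus strand (GRCm38, as are all positions here). It had 5, 2 and 10 counts in WT 1, WT 2 and WT 3 and 106, 137 and 207 counts in DKO 1, DKO 3 and DKO 4. The 2 counts of WT 2 have an exact 95% Poisson interval of 0.242 to 7.22, which covers counting error only, so the WT level is known to within a wide factor. In CPM it was 0.248 ± 0.172 (SD, n = 3) in WT and 7.79 ± 2.96 in DKO, a log2 fold change of 4.92 (SE 0.48), or 30.2-fold. The lowest DKO library was 12.2-fold above the highest WT library. Without WT 3, the WT library that held the most, the log2 fold change was 5.58. In length-scaled terms Qrfp moved from a WT mean of 0.0681 FPKM, below all but 0.328% of the tested genes, to 2.40 FPKM in DKO, where 25.9% of tested genes lay below it.

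Olfm2 (chr9:20667690-20746349, minus strand), known for its part in neural and vascular development, had 9.76, 9.45 and 7.80 CPM in the WT libraries and 27.9, 35.8 and 38.2 CPM in DKO 1, DKO 3 and DKO 4. The spread within each group was small beside the gap. The log2 fold change was 1.91 (SE 0.15), and the mean level went from 4.93 ± 0.833 FPKM in WT to 18.7 ± 3.00 FPKM in DKO (SD, n = 3). Ccdc80 (chr16:45093402-45128077, plus strand) had the highest DKO level of these 3, with 14.2, 10.7 and 19.7 CPM in WT 1, WT 2 and WT 3 and 101, 120 and 136 CPM in the DKO libraries. Its log2 fold change of 3.00 (SE 0.22) was the 11th largest of all tested genes, and its mean moved from the 34.3 to the 82.8 percentile of tested genes in FPKM.

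Plbd1 had the highest level of the 9 in both groups. It measured 37.1, 46.2 and 35.3 FPKM in WT 1, WT 2 and WT 3 and 107, 146 and 134 FPKM in DKO 1, DKO 3 and DKO 4. The DKO mean was above that of 96.4% of tested genes. Its log2 fold change was 1.75 (SE 0.16), or 3.37-fold, smaller than for the genes that were rare in WT.

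**Figure D2:**
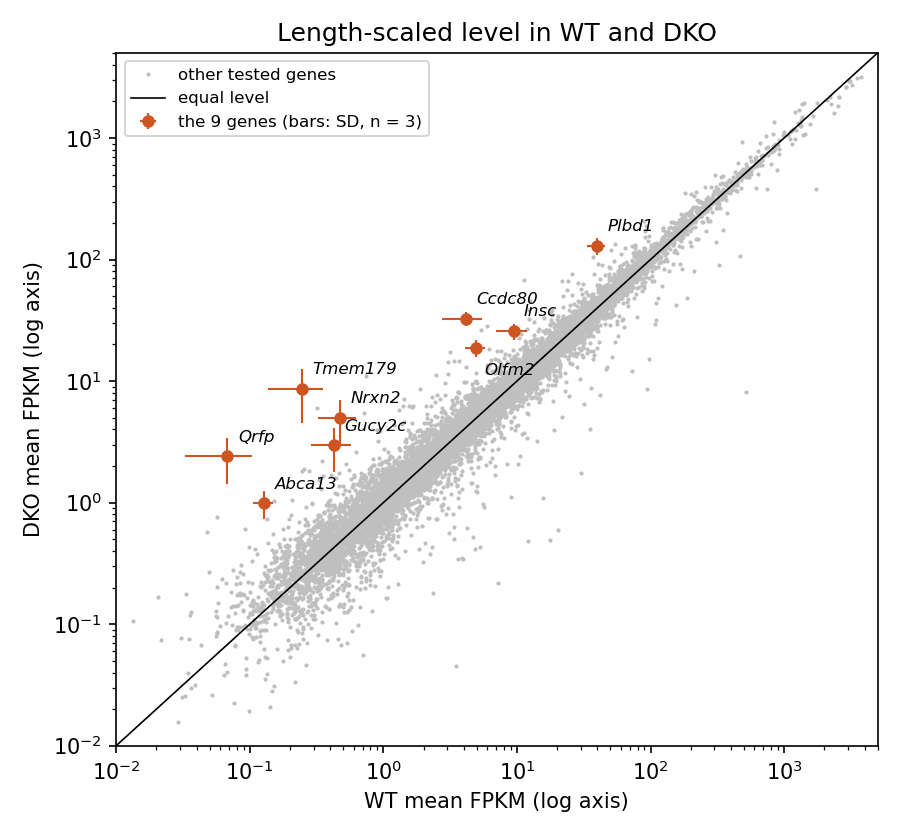
Mean FPKM in DKO (vertical) against WT (horizontal), both on log axes, for tested genes (grey) and the 9 genes (orange, bars are SD, n = 3); genes outside the axis range are not drawn and the line marks equal levels. The 9 genes lie above the line over a wide range of levels, from Qrfp and Abca13 at the low end to Plbd1 near the top.

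Of the membrane proteins, Tmem179 had the largest log2 fold change of all 14721 tested genes, 5.07 (SE 0.44), or 33.6-fold. The gene is at chr12:112500189-112516747 on the minus strand. Its counts were 8, 19 and 14 in WT 1, WT 2 and WT 3 and 285, 324 and 595 in DKO 1, DKO 3 and DKO 4. DKO 4 held about as much as DKO 1 and DKO 3 together, so the DKO libraries themselves spread over 2.23-fold in CPM, and the mean was 20.9 ± 9.55 CPM in DKO against 0.623 ± 0.291 CPM in WT (SD, n = 3). Even DKO 1, the lowest, was 15.5-fold above WT 2, the highest WT library. In FPKM, Tmem179 went from 0.142, 0.356 and 0.237 in WT to 5.99, 6.53 and 13.3 in DKO, from the 3.42 to the 50.2 percentile of tested genes.

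Nrxn2, the neurexin, at chr19:6418731-6544169 on the plus strand, had 9, 19 and 20 counts in the WT libraries and 202, 253 and 200 counts in the DKO libraries. Among the genes that were at or below 1 CPM in WT, its DKO libraries were the closest together in CPM, at 10.1, 12.9 and 10.7. In FPKM they lay further apart, at 3.13, 7.05 and 4.83 in DKO 1, DKO 3 and DKO 4. The WT libraries had 0.621, 0.487 and 0.317 FPKM in WT 1, WT 2 and WT 3, an order opposite to that of the counts. The log2 fold change was 3.95 (SE 0.30), or 15.5-fold by counts, but 10.5-fold by FPKM. The transcript length implied by the 2 measures (CPM divided by FPKM) varied for Nrxn2 from 0.635 to 3.30 kb between libraries, with 1.78 ± 1.12 kb in WT and 2.41 ± 0.817 kb in DKO (SD, n = 3), far below the 13.8 kb of its annotated exons. For the other 8 genes the implied length in DKO was 0.910 to 0.996 times that in WT, close to the median ratio of 0.969 over 14631 genes, while for Nrxn2 it was 1.35. Nrxn2 shares its locus with the antisense transcript Gm14964, which had 0, 0 and 1 counts in WT and 7, 5 and 18 counts in DKO. The kit does not mark strand, so reads of the 2 cannot be told apart where they overlap.

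Gucy2c, the guanylin receptor, had 1.95, 1.36 and 2.40 CPM in WT 1, WT 2 and WT 3 and 7.02, 15.3 and 17.5 CPM in DKO 1, DKO 3 and DKO 4. DKO 1 was less than 3 times the highest WT library, whereas DKO 3 and DKO 4 lay far above it. The log2 fold change was 2.79 (SE 0.37), and the DKO spread of 2.49-fold from lowest to highest was the widest of the 9. The transporter Abca13 (chr11:9191942-9684259, plus strand) had 2.33, 2.71 and 1.79 CPM in WT and 12.9, 22.8 and 17.4 CPM in DKO, a log2 fold change of 2.96 (SE 0.25). Its transcript is long, so in FPKM it stayed the lowest of the 9 in DKO, with a mean of 0.987 ± 0.249 (SD, n = 3) against 0.128 ± 0.0217 in WT, and in all 3 WT libraries the Cufflinks confidence interval reached 0.

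Insc, the spindle adaptor, at chr7:114743694-114850383 on the plus strand, had 20.2, 25.7 and 16.4 CPM in WT 1, WT 2 and WT 3 and 50.5, 72.2 and 52.5 CPM in DKO 1, DKO 3 and DKO 4. Its log2 fold change of 1.49 (SE 0.19), or 2.81-fold, was the smallest of the 9, with DKO 1 at 1.96 times WT 2.

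Close relatives of these genes were read in the same fit. Of 30 listed paralogs 29 were found in the tables, 18 were abundant enough to test, and edgeR called 0 of them in either direction, where it called 1.04% of all tested genes. At an unadjusted p below 0.05 there were 10 of the 18, where 18% of all tested genes lay, and DESeq2 called 4 of the 18, where it called 5.57% of all tested genes. The paralogs were thus above the share of all genes by these measures and not by edgeR's adjusted p. limma on FPKM called 0 (0.482% of all tested genes). The fitted changes were positive for 9 of the 18, with a median log2 fold change of 0.07, against −0.01 over all tested genes. Nrxn3, a neurexin like Nrxn2, had 59, 143 and 55 counts in WT and 39, 45 and 26 in DKO (fitted change −1.06 on the log2 scale with SE 0.45, edgeR adjusted p = 0.276).

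Abca12, the lipid transporter of the skin barrier and the nearest relative of Abca13 on the list, had 99, 14 and 41 counts in WT and 4, 3 and 8 in DKO. The fitted change was −3.08 on the log2 scale with SE 0.75 (edgeR adjusted p = 0.103), with a sign opposite to that of Abca13 and a wide spread among the WT libraries. DESeq2, which called 5.57% of all tested genes, called Abca12. The WT and DKO levels of Abca12 did not overlap, as for 23.3% of the tested genes in either direction. Abca1, the cholesterol exporter and most abundant of that list, had 271 ± 11.7 CPM in WT and 217 ± 25.8 CPM in DKO (edgeR adjusted p = 0.176). For Gucy2c the most abundant relative was the natriuretic peptide receptor Npr2, at 28.7 ± 3.58 and 31.5 ± 2.48 CPM (edgeR adjusted p = 0.571). Olfml3, the most abundant olfactomedin-domain gene tested, had 105, 109 and 103 CPM in WT and 123, 163 and 139 CPM in DKO. Its groups did not overlap, which held in either direction for 23.3% of the tested genes. The fitted change of 0.43 on the log2 scale (SE 0.10) was called by DESeq2 but not by edgeR (adjusted p = 0.104).

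For the remaining families, Srpx had 61.2 ± 2.80 and 69.9 ± 8.79 CPM (edgeR adjusted p = 0.352), and Plbd2, the lysosomal relative of Plbd1, had 98.7 ± 7.37 and 96.7 ± 3.15 CPM (edgeR adjusted p = 0.875). The difference between Plbd1 and Plbd2 in their change was not tested. The other RFamide precursors were rarer than Qrfp in DKO: Npff had 7, 4 and 12 counts in WT and 2, 2 and 1 in DKO, and Npvf, Prlh and Kiss1 had 0 counts in all 6 libraries.

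**Figure D3:**
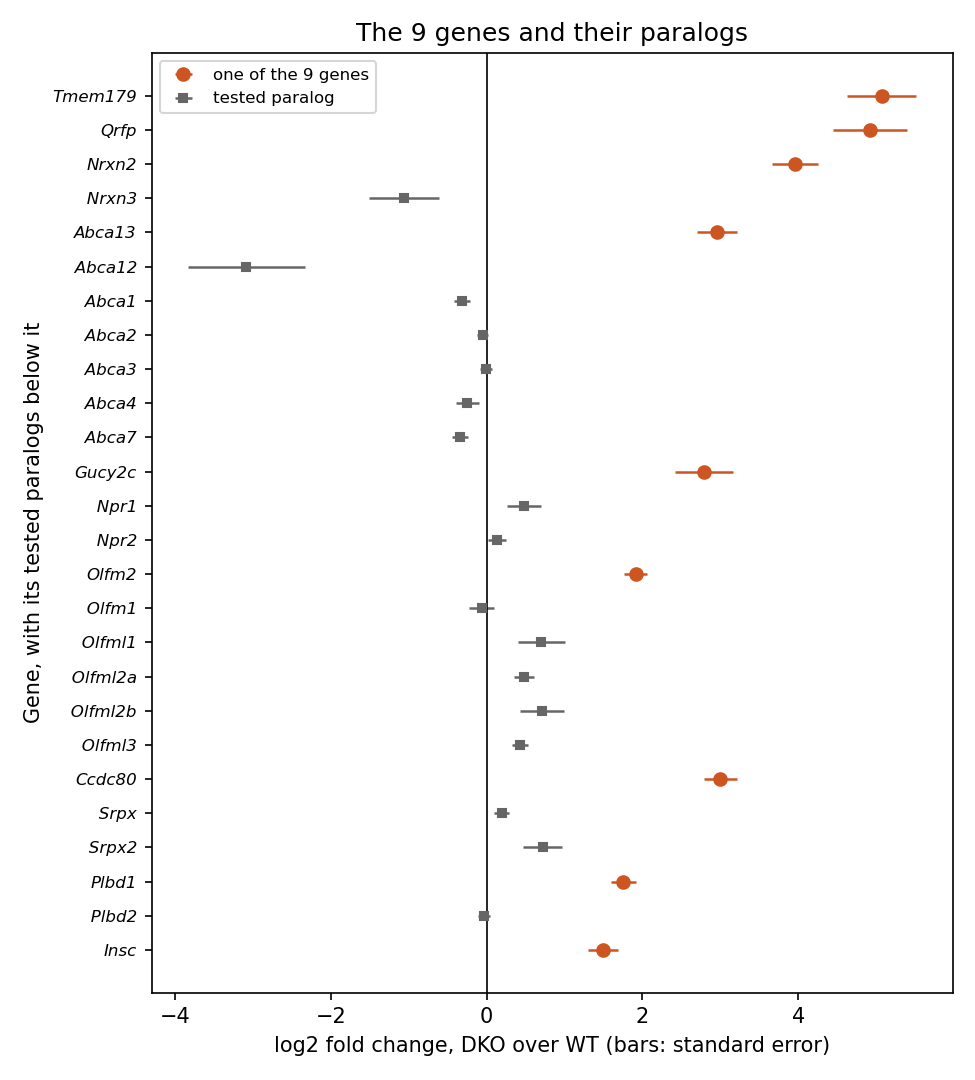
Fitted log2 fold change, DKO over WT, with its standard error, for each of the 9 genes (orange circles) and the tested paralogs reported here (grey squares) listed below it. The 9 genes lie between 1.49 and 5.07 and the paralogs drawn between −3.08 and 0.72.

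Receptors, ligands and effectors known to act with the products of these genes came next. Qrfpr, the receptor of the Qrfp peptide, had 0, 2 and 6 counts in WT and 0, 1 and 1 in DKO, and Qrfprl had 0 in all libraries. Of the related RFamide receptors, Npffr1 had at most 3 counts in a library, and Npffr2 averaged 1.64 ± 0.375 CPM over the WT libraries and 1.66 ± 0.645 CPM over DKO (edgeR adjusted p = 0.990). The guanylin ligands of Gucy2c were at or near 0: Guca2a had 1 count in all 6 libraries together and Guca2b had 0. The downstream genes of the cGMP pathway that were tested gave 0 calls in edgeR out of 5, 2 at an unadjusted p below 0.05 and 1 in DESeq2, the cGMP phosphodiesterase Pde5a, which had 26.0 ± 4.01 CPM in WT and 17.1 ± 2.15 CPM in DKO (edgeR adjusted p = 0.097). Over all tested genes these shares were 1.04%, 18% and 5.57%. Cftr, the chloride channel that cGMP signalling opens in the gut, had 302 ± 24.9 and 355 ± 63.6 CPM (edgeR adjusted p = 0.439).

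Over all 5 partner lists, 48 of 63 genes were tested and edgeR called 0, with 8 at an unadjusted p below 0.05, 4 called by DESeq2 and 0 by limma on FPKM. Over all tested genes these shares were 1.04%, 18%, 5.57% and 0.482%. The 8 were 16.7% of the partners tested, close to the share of all genes. Among the ligands and scaffolds of Nrxn2, 15 of 23 were tested, and DESeq2 called 3. Cbln1, a secreted bridge between neurexins and postsynaptic receptors, had 3.70 ± 1.21 CPM in WT and 7.79 ± 0.895 CPM in DKO (edgeR adjusted p = 0.095). The postsynaptic ligand Lrrtm2 had 1.47 ± 0.162 CPM in WT and 0.514 ± 0.125 CPM in DKO (edgeR adjusted p = 0.072). Lrrtm1, of the same family, had 7.76 ± 0.414 and 11.6 ± 1.24 CPM (edgeR adjusted p = 0.085). These 3 and Pde5a were singled out after their DESeq2 calls were seen.

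All 17 genes of the spindle orientation complex with which Insc acts were tested, and their log2 fold changes lay between −0.30 and 0.44, with a median of 0.01. edgeR called 0, 3 had an unadjusted p below 0.05 (where 18% of all tested genes lay) and DESeq2 called 0. The REST complex, known for repressing neural genes outside the nervous system, was read at 10 genes: edgeR and DESeq2 called 0 and none had an unadjusted p below 0.05. Rest itself had 55.4 ± 2.05 CPM in WT and 54.2 ± 4.06 CPM in DKO, with −0.03 as the fitted log2 fold change (SE 0.08) and an edgeR adjusted p = 0.867.

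By position, 2 of the 9 genes are neighbours. Plbd1 (chr6:136612070-136661928) and Gucy2c (chr6:136697284-136781765) lie 35355 bases apart on the minus strand of chromosome 6, with no protein-coding gene between them. The nearest tested genes on either side were not called: Atf7ip, 1207 bases beyond Plbd1, had 111 ± 4.20 CPM in WT and 94.7 ± 5.25 CPM in DKO (edgeR adjusted p = 0.165), and H2afj, beyond Gucy2c, had 14.8 ± 1.29 and 16.5 ± 2.47 CPM (edgeR adjusted p = 0.598). The 2 genes did not share the same order of libraries, since Plbd1 was highest in WT 2 and DKO 3 and Gucy2c in WT 3 and DKO 4.

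Of 32 protein-coding neighbours of the 9 genes (the 2 nearest on each side), 23 were tested. At an unadjusted p below 0.05 there were 6 of the 23 (26.1%), where 18% of all tested genes lay. Fitted changes were positive for 16 of the 23, and for 48.7% of all tested genes. Among the 23, 3 were higher by over 2-fold and 2 lower by over 2-fold, as were 261 and 325 of the 14721 tested genes. Where edgeR called 1.04% of all tested genes, it called 1 of these 23 neighbours. This was Col5a3, a fibrillar collagen chain 23700 bases from Olfm2, which had 989, 577 and 1171 counts in WT 1, WT 2 and WT 3 and 1723, 2906 and 2450 in DKO 1, DKO 3 and DKO 4. Its levels were 40.3 ± 11.6 and 122 ± 31.8 CPM, with a fitted change of 1.59 on the log2 scale (SE 0.26) and edgeR adjusted p = 0.040. It was not called on leaving out DKO 3, DKO 4, WT 1 or WT 3, with adjusted p from 0.069 to 0.149, nor by limma on FPKM. DESeq2, which called 5.57% of all tested genes, called Col5a3 and 1 further neighbour, Sox6. This transcription factor gene beside Insc had 11.7 ± 5.63 CPM in WT and 3.23 ± 0.938 CPM in DKO (edgeR adjusted p = 0.091). Among the 105 protein-coding genes called higher in DKO there were 6 pairs of immediate neighbours, and 2 of those pairs hold genes of the 9: Plbd1 with Gucy2c, and Olfm2 with Col5a3. The 9 were chosen as raised in DKO, so this is a description. How many pairs any 105 genes would hold was not tested.

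**Figure D4:**
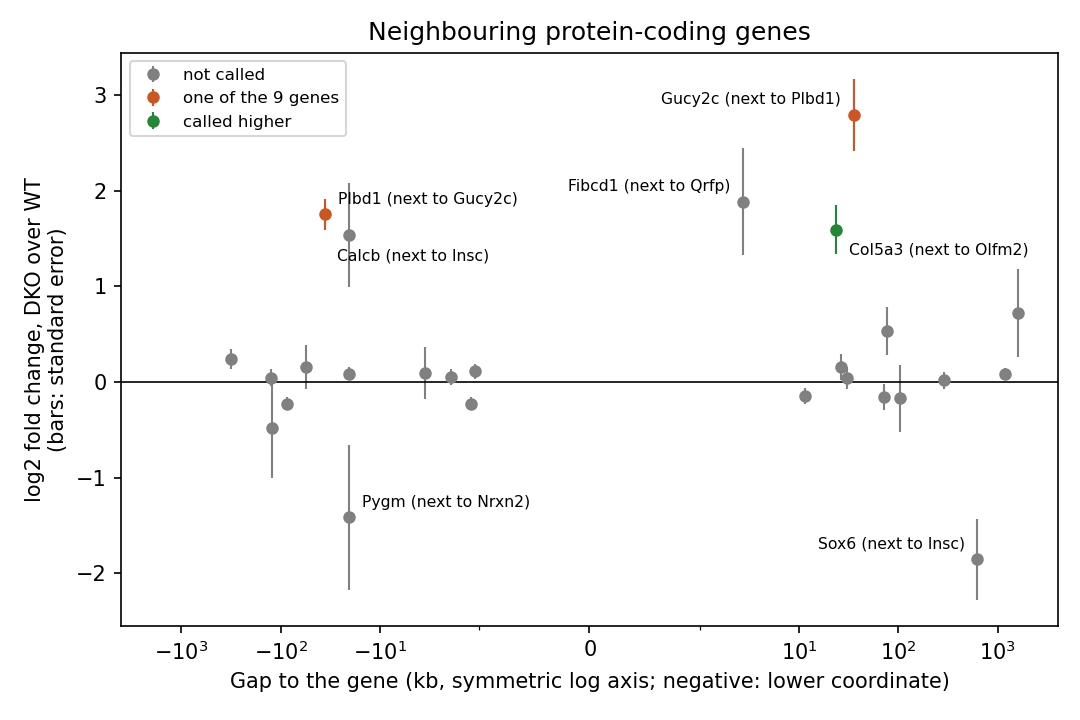
Log2 fold change, DKO over WT, with its standard error, for each tested protein-coding neighbour of the 9 genes against its gap to the gene in kb (symmetric log axis, negative for the side of lower coordinates). Most neighbours lie near 0, while 3 outside the 9 genes are over 2-fold higher and 2 over 2-fold lower. Gucy2c and Plbd1, each the other's neighbour, and Col5a3 are called higher.

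The pattern of Tmem179, Qrfp and Nrxn2, at or below 1 CPM in every WT library and at 4 CPM or more in every DKO library, was met by 4 of 46603 genes. The one outside the 9 was Has1, a hyaluronan synthase, with 0.695 ± 0.0992 CPM in WT and 12.8 ± 1.81 CPM in DKO. The mirror pattern, off in DKO and on in WT, was met by 0 genes in CPM. On the FPKM scale with the same bounds the counts were 3 and 2, with 1 of the 9 genes among the 3.

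Across the 6 libraries, the genes whose log2 level followed the mean standardised profile of the 9 most closely were Dusp2, Gm8890, Hrh1, Asns and Hdgfrp3, with Pearson r from 0.996 to 0.998. The 2 groups make up most of such a correlation, so it is given as a description over 6 libraries. Dusp2, a MAP kinase phosphatase, had 19.2 ± 0.945 CPM in WT and 60.8 ± 9.93 CPM in DKO, and Hrh1, a histamine receptor, 0.522 ± 0.0509 and 3.05 ± 0.701 CPM. Asns, the asparagine synthetase, followed the profile at a much smaller size, with 30.2 ± 0.0825 and 34.0 ± 0.723 CPM, and was not called (edgeR adjusted p = 0.242). Gm8890 had 0.434 ± 0.0824 and 2.46 ± 0.360 CPM, and Hdgfrp3 9.84 ± 0.292 and 14.4 ± 0.727 CPM (edgeR adjusted p = 0.060).

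Within the DKO group, DKO 1 was the lowest library for all 9 genes. The same library was lowest for 77.8% of the 108 genes called higher in DKO and for 32.5% of all tested genes, and it is the DKO library with high Xist. DKO 4 was the highest for Tmem179, Qrfp, Gucy2c, Olfm2 and Ccdc80, and DKO 3 for Nrxn2, Abca13, Plbd1 and Insc. In CPM those last 4 genes were also the highest in WT 2 within WT, a pairing of orders that 13.6% of tested genes showed. For Nrxn2 and Abca13 this WT order lay within counting error. Nrxn2 had 19 counts in WT 2 and 20 in WT 3, and Abca13 had 56 in WT 2 and 55 in WT 1. By FPKM, Nrxn2 was highest in WT 1. The summed ameloblast markers were likewise highest in WT 2 (162004 CPM) and DKO 3 (205085 CPM), and their part in the levels of these 4 genes was not tested. Qrfp, Gucy2c and Ccdc80 were highest in WT 3 and DKO 4 (12.1% of tested genes). The summed macrophage (197 and 346 CPM), adipocyte (14.4 and 20.9 CPM) and intestinal markers (6.28 and 5.56 CPM) were highest there too. The part of any of those cells was not tested either.

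**Figure D5:**
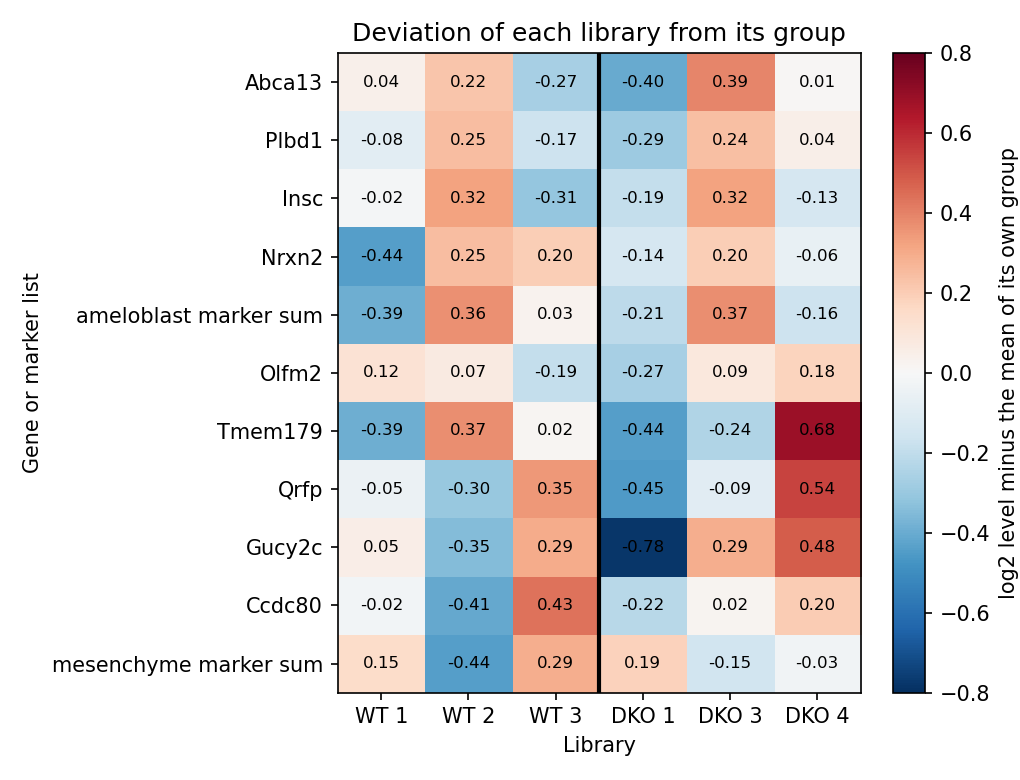
Deviation of each library from its own group's mean log2 level, for the 9 genes and the summed ameloblast and mesenchyme markers, in colour and with the value printed. DKO 1 is below its group for each of the 9 genes, and Abca13, Plbd1, Insc and Nrxn2 share their highest libraries, WT 2 and DKO 3, with the ameloblast sum. For Abca13 and Nrxn2 the order within WT lies within counting error.

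Since several of the 9 are known from other tissues, markers of those tissues were read in the same libraries. Neuronal markers summed to 65.5 to 74.8 CPM in WT and 46.9 to 85.8 CPM in DKO, mostly Tubb3 (50.5 ± 4.67 and 43.5 ± 17.0 CPM). Of 8 tested, edgeR and DESeq2 called 0, and 3 had an unadjusted p below 0.05, where 18% of all tested genes lay. Those 3 were Gap43, a growth cone protein (0.777 ± 0.300 CPM in WT and 2.10 ± 1.18 CPM in DKO), the ubiquitin hydrolase Uchl1 (6.65 ± 0.259 and 9.55 ± 1.27 CPM) and Stmn2, a tubulin-binding protein of neurons (7.38 ± 4.67 and 2.89 ± 0.856 CPM). Their edgeR adjusted p were 0.205, 0.129 and 0.223. The groups did not overlap for Uchl1, which held in either direction for 23.3% of the tested genes. The part of neurons in the levels of the 9 genes was not tested. Nefl had 0 counts in all libraries, Prph at most 1 and Elavl4 at most 2. Neuroendocrine markers summed to 356 to 605 CPM in WT and 478 to 579 CPM in DKO, nearly all from Cpe (477 ± 124 and 527 ± 50.9 CPM), and Chga had 1 count in all. The intestinal genes Cdx1, Cdx2 and Fabp2, of the epithelium in which Gucy2c is best known, had 0 counts in all 6 libraries, and the list summed to 3.05 to 6.28 CPM in WT and 3.31 to 5.56 CPM in DKO, led by Lgals4 in WT (2.33 ± 0.969 and 1.49 ± 0.0140 CPM) and by Cdh17 in DKO (1.69 ± 0.648 and 2.83 ± 1.05 CPM).

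Of 73 tested markers edgeR called 2, both on the Schwann cell list, while DESeq2 called 11, among them these 2. Of all tested genes, edgeR called 1.04% and DESeq2 5.57%. In edgeR, Gfra3 was higher in DKO (1.58 ± 0.300 against 3.88 ± 0.331 CPM, edgeR adjusted p = 0.045) and Erbb3 lower (48.0 ± 5.49 against 28.9 ± 2.46 CPM, edgeR adjusted p = 0.029). The Gfra3 call was lost on leaving out any 1 of the 6 libraries (adjusted p from 0.070 to 0.161) and the Erbb3 call on leaving out any but WT 2 (0.064 to 0.116). The list summed to 163 to 203 CPM in WT and 150 to 152 CPM in DKO, with Pmp22 the most abundant (107 ± 15.2 and 85.5 ± 2.08 CPM).

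For markers of connective tissue, vessels and macrophages edgeR made 0 calls. All 12 mesenchyme genes had positive fitted changes (median 0.33, with 48.7% of all tested genes positive), and the list summed to 7082 to 11773 CPM in WT and 10965 to 13883 CPM in DKO, with Col1a1 the most abundant over the 6 libraries (3269 ± 763 and 3844 ± 254 CPM). The 9 macrophage genes were also all positive (median 0.61), with sums of 139 to 197 CPM in WT and 209 to 346 CPM in DKO. Lyz2 led them, at 51.6 ± 10.8 and 107 ± 43.9 CPM (edgeR adjusted p = 0.126). Sums for smooth muscle and pericytes were 442 to 607 CPM in WT and 656 to 767 CPM in DKO (median 0.52, Rgs5 most abundant at 232 ± 49.2 and 309 ± 9.29 CPM), and for endothelium 150 to 199 and 223 to 238 CPM (median 0.37, Kdr 52.1 ± 3.70 and 63.3 ± 10.6 CPM).

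At an unadjusted p below 0.05 there were 0 of 12 mesenchyme, 7 of 9 macrophage, 5 of 7 smooth muscle and 2 of 6 endothelial genes, where 18% of all tested genes lay. DESeq2 called 0, 4, 3 and 1 of them (5.57% of all tested genes). The macrophage and smooth muscle shares were far above those of all genes. The macrophage, smooth muscle and endothelial sums were higher in DKO and did not overlap between the groups. The Schwann cell sum did not overlap either, and was lower in DKO. Of single tested genes, 23.3% had groups that did not overlap, in either direction. The part of any of these cells in the levels of the 9 genes was not tested. Adipocyte markers summed to 6.40 to 14.4 CPM in WT and 8.03 to 20.9 CPM in DKO, led by Lpl (8.10 ± 4.42 and 11.3 ± 6.72 CPM), with Lep at 0 counts. Neutrophil markers ran from 2.21 to 63.3 CPM in WT and 8.10 to 19.6 CPM in DKO, led by S100a9, and odontoblast and bone markers from 46.5 to 140 and from 56.9 to 306 CPM, led by Dspp in WT (39.9 ± 48.5 CPM, against 44.5 ± 56.9 CPM in DKO) and by Ibsp in DKO (26.1 ± 7.63 and 94.0 ± 80.1 CPM, with 186 CPM in DKO 1). Among ameloblast markers the most abundant was Ambn, with 51246 ± 14774 CPM in WT and 73354 ± 14704 CPM in DKO (edgeR adjusted p = 0.418).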

How the data were processed

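RNA was measured in 3 DKO and 3 WT enamel organ libraries, prepared from 500 ng of total RNA with an unstranded TruSeq kit and 12 PCR cycles and read as pairs of 150 nucleotides, per the labels' protocols. The authors deposited whole-number counts per gene, not normalised, and FPKM values with confidence bounds in Cufflinks gene tables, per the file headers. Trimmomatic 0.32, Cufflinks 2.2, HTSeq and GRCm38 are named per the submitters' processing notes; the aligner, annotation release and counting options were not given in the sources used here.

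Counts of all 46603 genes (0 rows named no gene) were fitted with edgeR 4.0.16 in R 4.3.3 (TMM scaling, filterByExpr, quasi-likelihood F test, Benjamini-Hochberg adjustment over 14721 tested genes), with no covariate. DESeq2 1.42.0, limma 3.58.1 on log2(FPKM + 1), which understates the change of low genes, other scalings, no filter, a replicate block, a term for Xist and leaving out each library were alternatives. The edgeR step was tested on simulated data. Groups came from the labels. Depth of about equal size in all libraries made counting error small except for the rarest genes; fragments carry no molecular identifiers, so intervals cover counting error only.

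The 9 genes and the lists of paralogs, partners and markers were chosen with earlier results of these data known. Genes named were the 9, called genes of each list, the most abundant paralog of each gene and any paralog with an absolute log2 fold change above 1, the ligands and receptors of Qrfp and Gucy2c, Rest, genes sharing the pattern of all WT at or below 1 CPM and all DKO at or above 4 CPM, the 5 genes closest in profile, and the most abundant gene of each marker list. Positions and exon lengths came from GENCODE vM21 on GRCm38 (1-based), which may not be the authors' release, and promoter sequences from RefSeq on GRCm38.p6, with no entry used for Nrxn2, Gucy2c or Ccdc80. The paralog Tmem179b was not analysed here, and 1 paralog that the rule names is counted in its list but not reported here by name.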

Additional observations from a re-analysis of the deposited data

How the results depend on the processing

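The fitted change of each of the 9 genes stayed positive under every alternative that could be fitted to it; Abca13 fell below the FPKM filter and was not fitted in the 2 filtered FPKM analyses. Their median log2 fold change was 2.96, lay between 2.74 and 3.11 on leaving out single libraries, and was 1.71 (filtered) and 1.68 (no filter) on log2(FPKM + 1), where the added 1 shrinks low genes. The genes were chosen on this contrast, so their calls support nothing. As a description, edgeR called 9 of 9, 8 with the Xist term (not Insc) and 7 (not Gucy2c and Insc) without DKO 3, DKO 4, WT 1 or WT 3, and limma called 7 of the 8 fitted with the FPKM filter and 0 of 9 with no filter. Counts of calls over all genes and lists depended far more on the method. Against 153 genes, 1 neighbour, 2 markers, 0 paralogs and 0 partners by edgeR, DESeq2's test called 826, 2, 11, 4 and 4, and edgeR with no low-count filter called 554, 2, 9, 4 and 2. The Xist term left 71 genes and 0 markers. limma on FPKM called 77 genes with either pseudocount and 11 with no filter, with 0 neighbours and 0 markers each time. Leaving out single libraries gave 21 genes (without DKO 4) to 335 (without WT 2), with 23 without DKO 3, 30 without WT 3 and 84 without WT 1, and 0 to 2 neighbours, 0 to 4 markers, 0 to 1 paralogs and 0 partners. The cause of these differences was not tested. The replicate numbers 1 and 3 occur in both groups, and the deviations of same-numbered libraries had correlations of 0.19 and −0.01. Taken in order, WT 1 with DKO 1, WT 2 with DKO 3 and WT 3 with DKO 4 gave 0.19, 0.23 and 0.19. The remaining pairs of a WT and a DKO library gave −0.22 to 0.03. The labels name no pairing, and whether the libraries were paired in this order was not tested. With the replicate block, edgeR called 328 genes, 2 neighbours and 1 paralog, and the log2 fold change of Qrfp was 4.25. In that fit WT 2 and DKO 4 are each alone in their block. The contrast then rests on WT 1, WT 3, DKO 1 and DKO 3 only. Depth limits the WT values of Tmem179, Qrfp and Nrxn2, each of which rests on 20 counts or fewer per library.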
